A study of Mus musculus with 6 samples.

Results

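The genes described are 59 genes of mitosis and chromosome segregation, in mouse CD8+ T cells, the cytotoxic arm of T cell immunity. They were chosen by symbol as a list of cyclins, kinases, checkpoint, kinetochore, condensin, spindle and cytokinesis genes, and all 59 were present among the 55487 genes of the RNA-seq tables. All 59 also passed the expression filter, and so belonged to the 12350 genes tested. Cells of C57BL/6 mice were cultured for 48 h either with NaCl, the control, or with 5 mM itaconate, a metabolite of activated macrophages, in 3 libraries each. The labels name no mutant genotype, and they do not state whether or how the cells were activated or whether libraries stem from different animals, so the p-values measure library-to-library spread that may be technical.

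Mitosis is driven by the kinase CDK1 bound to A-type and B-type cyclins. Condensins compact the chromosomes, motors build the spindle and kinetochores hold each chromosome on it, while the spindle assembly checkpoint restrains a ubiquitin ligase, the anaphase-promoting complex, until every chromosome is attached. RNAs of these genes rise together late in the cell cycle, driven by the MuvB complex with B-MYB and FOXM1, and dividing T cells are rich in them. In bulk RNA, fewer cells in mitosis and less RNA per mitotic cell cannot be told apart.

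As a set, these RNAs stood at nearly the same level with and without itaconate, and 4 single genes changed. Cdc25b, a phosphatase that activates CDK1, rose 1.33-fold. Ube2c, the ubiquitin-conjugating enzyme that works with the anaphase-promoting complex, rose 1.21-fold, and Nusap1, which bundles spindle microtubules, rose 1.15-fold. The Nusap1 call was lost without any 1 library other than itaconate library 2. Ndc80, the kinetochore subunit that grips microtubules, fell to 0.803 of its control level. The remaining 55 members did not pass the test.

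Promoters of late cell cycle genes are known for a CHR element (cell cycle genes homology region), which MuvB binds, and for CCAAT boxes, which the factor NF-Y binds. RefSeq promoter windows of build GRCm38.p6, from 250 bases before to 50 bases after an annotated start, matched 48 of the 59 members by symbol, in 52 windows. CHR was searched as TTTGAA or TTCGAA and the box as CCAAT, on both strands, and the letters of the motifs overlapped in 1 of the 52 windows. The lines below show the 120 bases before the start, 5′ to 3′ along the gene, with CHR and CCAAT letters (or their reverse complements) in capitals. Ube2c, Cdc25b, Nusap1 and Ndc80 are shown because they changed, and Cdc20, Top2a and Cdk1 as members with both motifs that did not pass. The stretches lie at chr2:164769809-164769928 (plus), chr2:131186828-131186947 (plus), chr2:119618178-119618297 (plus), chr17:71526858-71526977 (minus), chr4:118437344-118437463 (minus), chr11:99024190-99024309 (minus) and chr10:69352913-69353032 (minus), with the strand in parentheses.
Ube2c: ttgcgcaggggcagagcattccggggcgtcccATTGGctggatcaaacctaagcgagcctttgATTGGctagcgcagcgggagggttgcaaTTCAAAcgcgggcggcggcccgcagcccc
Cdc25b: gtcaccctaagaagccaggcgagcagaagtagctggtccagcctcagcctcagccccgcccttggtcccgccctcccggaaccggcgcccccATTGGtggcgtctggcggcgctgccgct
Nusap1: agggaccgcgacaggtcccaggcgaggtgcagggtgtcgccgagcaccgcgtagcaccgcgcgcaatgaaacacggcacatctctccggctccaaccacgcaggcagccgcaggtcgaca
Ndc80: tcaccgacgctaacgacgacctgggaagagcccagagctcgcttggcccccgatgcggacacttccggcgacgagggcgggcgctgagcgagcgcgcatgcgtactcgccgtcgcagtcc
Cdc20: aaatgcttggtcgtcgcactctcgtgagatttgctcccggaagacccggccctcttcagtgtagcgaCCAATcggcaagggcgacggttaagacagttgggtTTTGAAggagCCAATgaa
Top2a: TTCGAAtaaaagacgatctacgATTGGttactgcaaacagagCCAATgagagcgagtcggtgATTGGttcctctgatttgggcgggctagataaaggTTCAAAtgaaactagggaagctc
Cdk1: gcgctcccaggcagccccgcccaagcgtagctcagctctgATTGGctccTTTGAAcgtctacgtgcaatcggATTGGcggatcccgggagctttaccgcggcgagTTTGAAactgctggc

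The Ube2c stretch held CCAAT letters at -88 and -57 and CHR letters at -29, counted in bases from the start to the first letter of the match. That of Cdk1 held CCAAT letters at -80 and -48 and CHR letters at -71 and -15. Cdc25b had CCAAT letters at -28, and its CHR letters began at base 8 of the transcript, outside the stretch shown. The Ndc80 window had CHR letters from base 30 of the transcript and no CCAAT letters, and the Nusap1 window held neither. So the 4 genes that changed had promoters of differing motif content.

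CHR letters stood in 78.8% of the 52 member windows, against 19.2% of all 32851 windows of the table. CCAAT letters stood in 69.2% of member windows, against 37.4% of all, and both motifs in 65.4% against 7.53%. CHR letters starting within 50 bases of the start, on either side, were found in 37 of the 52 windows (71.2%) and in 5.31% of all windows. A pair of CCAAT matches beginning 31 to 34 bases apart, a spacing picked after the member windows had been read, occurred in 17.3% of member windows and 1.196% of all. An E2F site, searched as TTTCGCGC or TTTGGCGC on both strands, occurred in 5.77% and 0.813%. These are matches of letters, and binding was not measured.

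**Figure D1:**
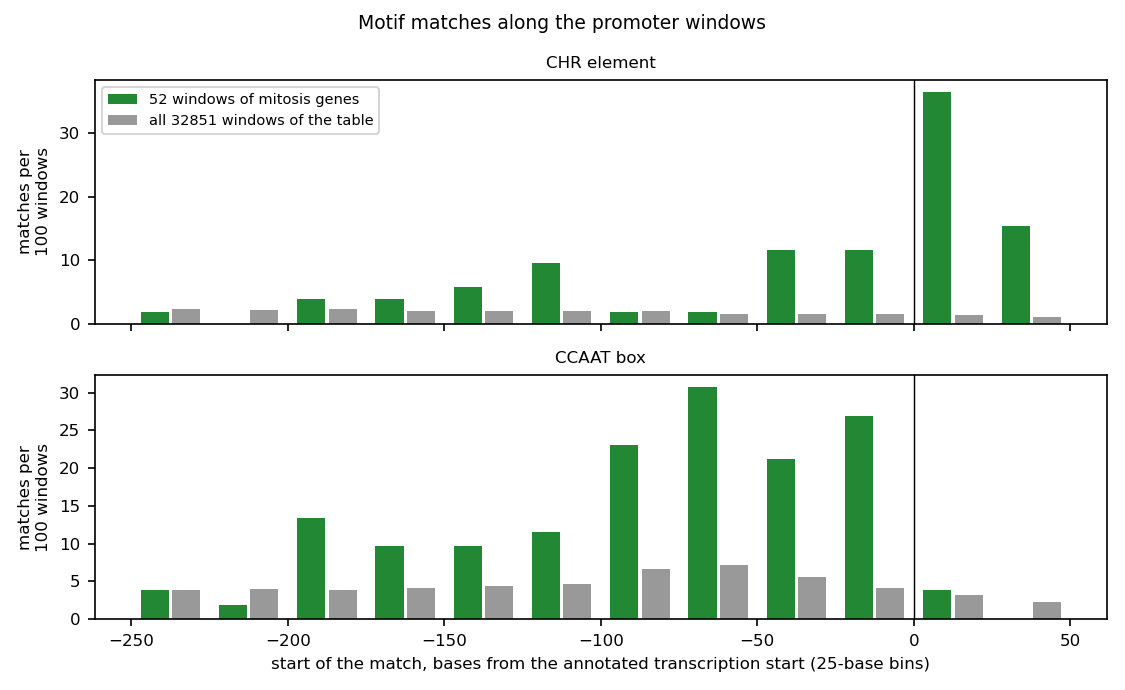
Matches of CHR letters (upper panel) and CCAAT letters (lower panel) per 100 promoter windows, in 25-base bins of distance from the annotated start, for the 52 member windows (green) and all windows (grey). Member CHR matches are densest in the first bin after the start, with 19 matches, and member CCAAT matches in the bin from -75 to -51, with 16.

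Members with and without both motifs had similar fold changes. The 31 genes with CHR and CCAAT letters in a window had a median log2 fold change of 0.02 and ranged from -0.16 to 0.41. The 17 genes without both had a median of 0.00 and ranged from -0.32 to 0.20, and the 11 members without a matched window had a median of 0.04. The difference between these sets was not tested.

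Of the 59 members, 3 rose (5.08%) and 1 fell (1.69%) at an adjusted p under 0.05, by edgeR's quasi-likelihood test with Benjamini-Hochberg adjustment over all tested genes. Of all 12350 tested genes 12.0% were called, 6.68% higher and 5.36% lower. Among the 7041 genes within the members' range of mean level, 16.5 to 618.5 CPM (counts scaled to library size), 8.27% were called higher and 6.99% lower. The members' shares lay below these, a difference that was not tested. At an unadjusted p under 0.05, 9 members were higher and 5 lower, beside 26.5% of all genes in either direction. Control and itaconate CPM were fully apart for 14 members that were higher with itaconate and 5 that were lower, together 32.2%, beside 31.2% of all genes (16.8% higher, 14.4% lower). That share was close to the background.

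By limma on log2(TPM + 1) values (TPM also scales each gene to its transcript length), 0 of the 59 passed, with 2 higher and 6 lower at an unadjusted p under 0.05. That test called 340 genes in all, 39.1% of them higher, where edgeR called 1487 with 55.5% higher. The members' median log2 fold change, itaconate relative to control, was 0.02 by edgeR and -0.03 on log2(TPM + 1), beside 0.01 and -0.05 for all genes. By edgeR 35 of the 59 lay above 0 (59.3%), beside 51.4% of all genes. On log2(TPM + 1) 17 of the 59 did, where the median over all genes also lay below 0, at -0.05. Shares of all genes above 0 or at an unadjusted p under 0.05 were not computed on that scale.

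The fold changes of the members were small. Their median absolute log2 fold change was 0.07, beside 0.13 over all tested genes and 0.10 over genes within the members' CPM range. For 53 members (89.8%) the 95% confidence interval of the log2 fold change lay within 0.32 of 0 in either direction, as for 45.6% of all tested genes and 72.2% of those in the CPM range. The 6 members with wider reach were Cdc25b, Ube2c and Ndc80, and Cdc25c, Aspm and Kif20b, whose intervals extended down to -0.39, -0.34 and -0.41.

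**Figure D2:**
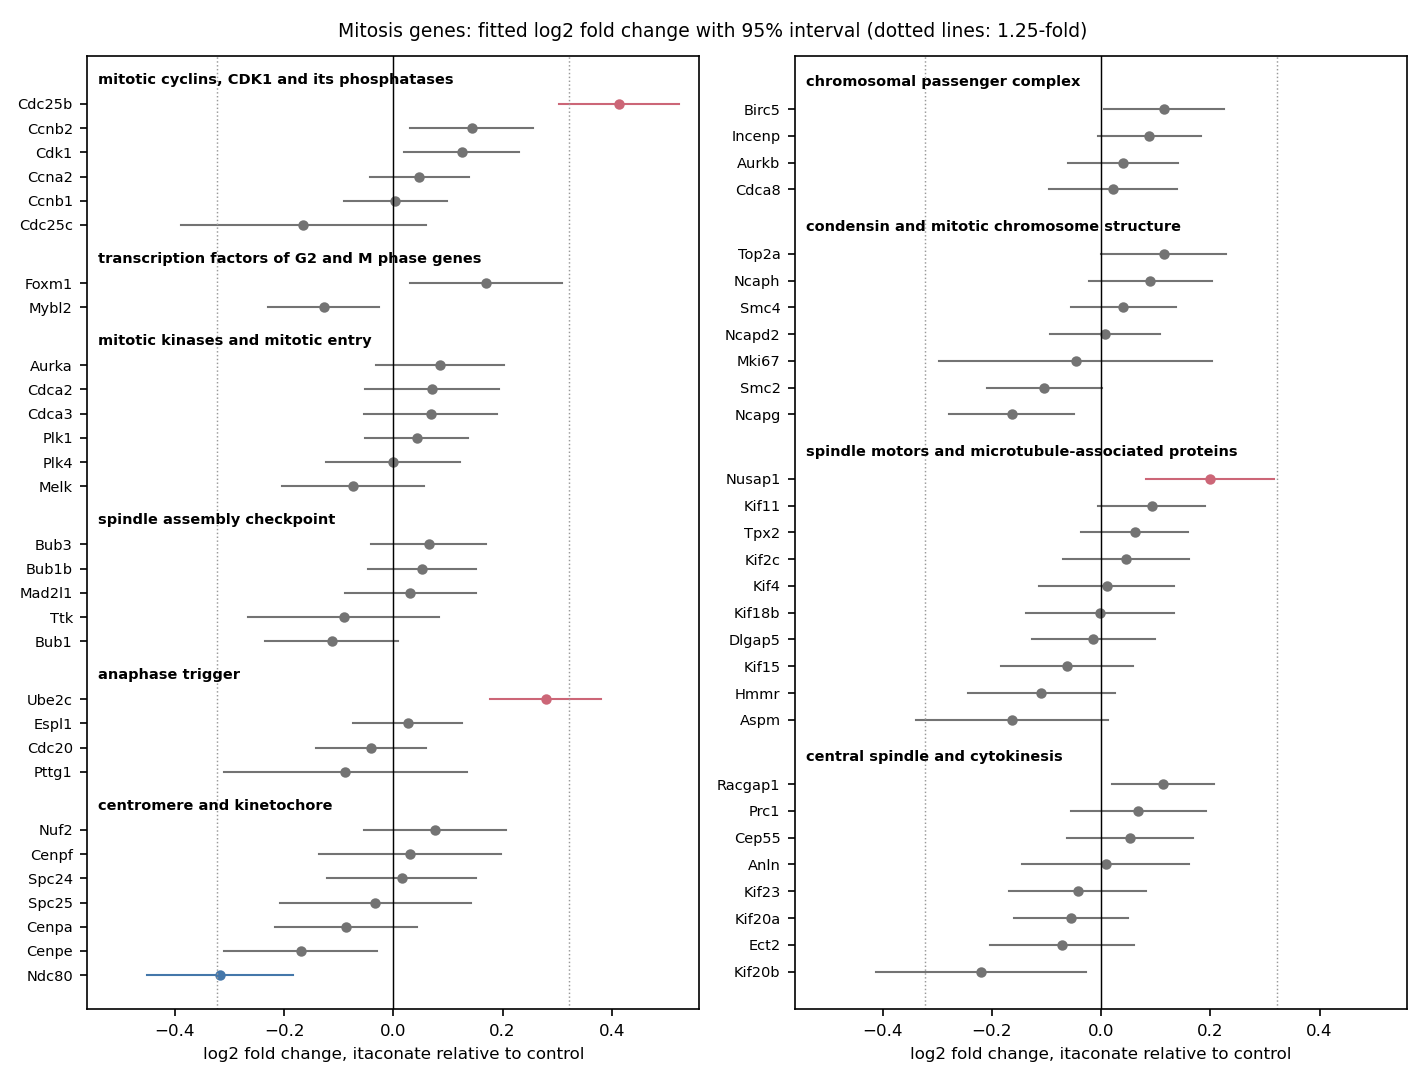
Fitted log2 fold change of each of the 59 members, itaconate relative to control, by role, with bars for the 95% confidence interval and dotted lines at 0.32 on either side of 0. Red marks the 3 genes that rose, blue the 1 that fell and grey the 55 that did not pass, and 53 of the 59 bars lie between the dotted lines.

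Of the 6 genes for mitotic cyclins, CDK1 and its phosphatases, 1 rose. Cdc25b measured 70.6, 68.5 and 68.5 CPM in control libraries 1, 2 and 3, and 90.7, 92.3 and 93.5 CPM in itaconate libraries 1, 2 and 3. Every itaconate library lay above every control library, and the change was the greatest of the 59 (log2 fold change 0.41 ± 0.05, SE, adjusted p 0.000185). The call held without any 1 library, with adjusted p from 0.000285 to 0.00409. An exon of Spef1, a gene at 3.93 CPM on the opposite strand, overlaps it, as such exons do for 12 of the 59 members, and the strand setting of the counting is not given in the sources used here. Cdc25c, a related phosphatase, was at 17.4 ± 0.882 and 15.5 ± 2.04 CPM (mean ± SD, n = 3 libraries, control before itaconate here and below, adjusted p 0.351).

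Cdk1, the kinase at the core of mitotic entry, measured 123, 127 and 134 CPM in control and 139, 139.9 and 141 CPM in itaconate libraries. The groups did not overlap, but the difference of 0.13 ± 0.05 did not pass (adjusted p 0.114). Cyclin B2, Ccnb2, was at 78.2 ± 1.21 and 86.4 ± 2.95 CPM (adjusted p 0.0921) and cyclin A2, Ccna2, at 286 ± 3.96 and 295 ± 4.16 CPM (adjusted p 0.528). Cyclin B1, Ccnb1, measured 206, 211 and 218 CPM in control and 213, 209 and 215 CPM with itaconate, with full overlap (adjusted p 0.971), and the sign of its difference depended on the setting.

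Neither transcription factor of the list passed, and their differences had opposite signs. Foxm1, an activator of G2 and M phase genes, measured 87.5, 80.8 and 74.96 CPM in control and 96.9, 86.8 and 89.7 CPM with itaconate (0.17 ± 0.07, adjusted p 0.108). Its groups overlapped through control library 1, and without that library it was called higher (adjusted p 0.0396). Without any other 1 library it did not pass (adjusted p 0.123 to 0.347). Mybl2, which encodes B-MYB, measured 121, 119 and 121 CPM in control and 108, 113 and 111 CPM with itaconate (-0.13 ± 0.05, adjusted p 0.0988). Here all itaconate libraries lay below all control libraries.

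The 6 kinases and regulators of mitotic entry all missed the threshold, at log2 fold changes from -0.07 to 0.09. Aurka, the spindle pole kinase Aurora A, measured 79.5, 83.9 and 82.3 CPM in control and 90.8, 83.1 and 86.8 CPM with itaconate (adjusted p 0.35), with overlap. Plk1, Polo-like kinase 1, which acts from mitotic entry to cytokinesis, measured 181, 180.1 and 182 CPM in control and 190.4, 186 and 182 CPM with itaconate (0.04 ± 0.04, adjusted p 0.598). Its groups were separate by a narrow margin. Plk4, the kinase of centriole duplication, was at 75.2 ± 1.74 and 75.2 ± 4.20 CPM.

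None of the 5 spindle assembly checkpoint genes passed. Bub1, a kinase that recruits checkpoint proteins to kinetochores, measured 90.9, 81.2 and 83.5 CPM in control and 79.3, 77.7 and 79.5 CPM with itaconate (-0.11 ± 0.06, adjusted p 0.228). The groups did not overlap, and control library 1 was the highest. Bub1b, Bub3, Mad2l1 and Ttk, the other checkpoint genes, had overlapping groups and log2 fold changes from -0.09 to 0.07.

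Of 4 genes that trigger anaphase, Ube2c rose. It had the highest level per transcript length of the 59, 338 ± 11.8 and 391 ± 15.7 TPM. By CPM it measured 195, 189 and 206 in control and 242, 239 and 235 with itaconate, with no overlap (0.28 ± 0.05, adjusted p 0.00174). Without any 1 library the adjusted p stayed between 0.00193 and 0.0234. Cdc20, an activator of the anaphase-promoting complex, was at 239.6 ± 2.38 and 233 ± 10.7 CPM, separase, Espl1, at 154 ± 3.85 and 157 ± 4.06 CPM, and its inhibitor securin, Pttg1, at 21.7 ± 2.54 and 20.5 ± 2.07 CPM. For these 3 genes the groups overlapped.

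Ndc80 was the 1 gene that fell, among 7 of the centromere and kinetochore. It measured 60.4, 56.6 and 61.3 CPM in control and 49.7, 45.00 and 48.5 CPM with itaconate (-0.32 ± 0.06, adjusted p 0.00485), and every itaconate library lay below every control library. The call held without any 1 library (adjusted p 0.00818 to 0.0295). The protein works in a complex with those of Nuf2, Spc24 and Spc25, and these partners did not pass, at 56.8 ± 1.69 and 59.9 ± 3.18 CPM, 55.1 ± 3.90 and 55.7 ± 0.900 CPM and 24.9 ± 1.49 and 24.3 ± 1.48 CPM. The 95% interval of the log2 fold change ran from -0.45 to -0.18 for Ndc80 and from -0.05 to 0.21 for Nuf2, -0.12 to 0.15 for Spc24 and -0.21 to 0.14 for Spc25. A difference between subunits was not tested.

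Cenpa, the histone H3 variant of centromeres, had the next highest level per length, 277 ± 13.5 and 254 ± 19.5 TPM. Its CPM were 147, 159 and 175 in control and 147, 158 and 149.8 with itaconate (-0.09 ± 0.06, adjusted p 0.403), with control library 3 the highest of all 6. The kinetochore motor gene Cenpe was at 102 ± 6.15 and 91.03 ± 7.5012 CPM (-0.17 ± 0.07, adjusted p 0.11). Without itaconate library 1 it was called lower (adjusted p 0.033), as with no filter on low counts (0.0429). Without any other 1 library it did not pass (0.1 to 0.359). Nor did it pass with effective transcript lengths in the fit (0.931) or by limma on log2(TPM + 1) (0.738).

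All 4 genes of the chromosomal passenger complex, which corrects faulty attachments and later steers cytokinesis, had edgeR log2 fold changes above 0, from 0.02 to 0.12, while the mean TPM of Aurkb, Incenp and Cdca8 were lower with itaconate, and none passed. Birc5, survivin, measured 138, 138 and 148 CPM in control and 150.03, 159.8 and 149 CPM with itaconate (0.12 ± 0.05, adjusted p 0.164), the groups lying apart by a narrow margin. Aurkb, the kinase of the complex, measured 139, 136 and 136 CPM in control and 136, 142 and 145 CPM with itaconate (0.04 ± 0.05, adjusted p 0.648), with overlap. On log2(TPM + 1) the differences of Aurkb and Plk1 were below 0.

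None of the 7 condensin and chromosome structure genes passed. Ncapg, a subunit of condensin I, came nearest, at 126, 116 and 116 CPM in control and 110.5, 104 and 106 CPM with itaconate (-0.16 ± 0.05, adjusted p 0.0603), without overlap, and it was called lower with no filter on low counts (0.0461). An exon of Lcorl, a gene at 9.59 CPM on the opposite strand, overlaps it. Smc2 and Smc4, the core of condensin, were at 198 ± 7.92 and 184 ± 7.11 CPM and at 380.3 ± 12.8 and 391 ± 8.04 CPM, and both overlapped between groups.

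Top2a, the topoisomerase that untangles sister chromatids, measured 624, 591 and 567 CPM in control and 684, 631 and 613 CPM with itaconate (0.11 ± 0.05, adjusted p 0.186). Its groups overlapped, and library 1 was the highest of each. Mki67, the proliferation antigen that coats mitotic chromosomes, measured 560.4, 497 and 484 CPM in control and 568, 492 and 432 CPM with itaconate (-0.05 ± 0.11, adjusted p 0.831). The spread within its groups exceeded the difference between them, and the sign changed without control library 1 or itaconate library 3.

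**Figure D3:**
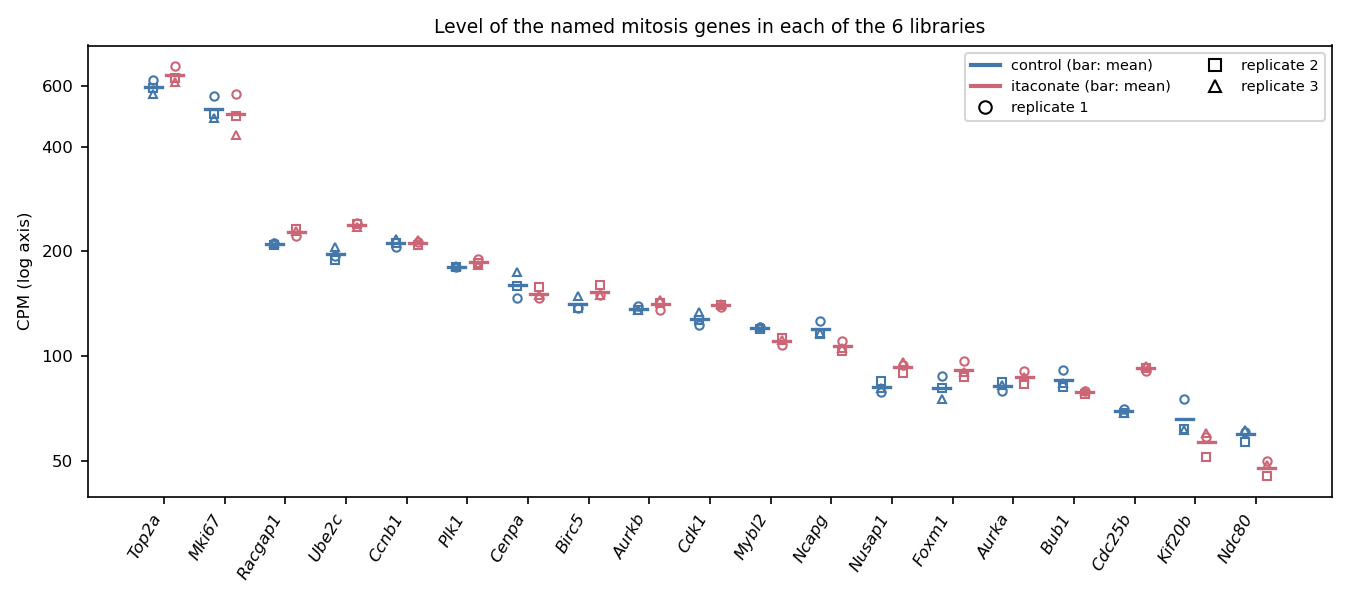
CPM, on a log axis, in every library for the 19 members chosen by rule, with control libraries in blue, itaconate libraries in red, a symbol for each replicate number and a bar at each group mean. Cdc25b, Ube2c and Nusap1 have their itaconate libraries above control and Ndc80 below, while the groups of Mki67 are mixed.

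Of 10 spindle motor and microtubule-binding genes, 1 rose. Nusap1 measured 78.7, 84.5 and 80.7 CPM in control and 94.1, 89.2 and 96.4 CPM with itaconate, without overlap (0.20 ± 0.05, adjusted p 0.029). The call was lost without any 1 library other than itaconate library 2 (adjusted p 0.0655 to 0.13) and with effective transcript lengths in the fit (0.0835). An exon of Oip5, a gene at 24.3 CPM on the opposite strand, overlaps it. Kif11, the motor that pushes spindle poles apart, was at 200.2 ± 7.10 and 213 ± 3.97 CPM and Tpx2, which activates Aurora A on the spindle, at 204 ± 2.79 and 213 ± 7.998 CPM. Their groups did not overlap, yet neither passed (adjusted p 0.218 and 0.43).

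None of the 8 central spindle and cytokinesis genes passed. Racgap1, which with the motor Kif23 forms centralspindlin, measured 211, 208 and 212 CPM in control and 222, 233 and 228 CPM with itaconate, without overlap (0.11 ± 0.04, adjusted p 0.109). Kif23 itself was at 70.4 ± 2.78 and 68.3 ± 3.11 CPM. Kif20b, a kinesin of cytokinesis, measured 75.1, 61.5 and 61.02 CPM in control and 58.3, 51.3 and 59.97 CPM with itaconate (-0.22 ± 0.09, adjusted p 0.133). Control library 1 stood above the rest there, and without it the adjusted p was 0.376, while with no filter on low counts the gene was called lower (0.012). Prc1, Anln, Ect2 and Cep55, which bundle the central spindle, scaffold the contractile ring, activate RhoA and bring in the abscission machinery, had log2 fold changes from -0.07 to 0.07.

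In their summed level, the groups overlapped, and library 1 was the highest of each. The 59 genes took 0.812, 0.786 and 0.773% of all counts in control, against 0.818, 0.781 and 0.781% after itaconate. Control library 1 held the highest value of its group for 31 members (52.5%, beside 34.8% of all genes), and itaconate library 1 for 27 (45.8%, beside 33.8%). Control library 1 also had longer fragments, as length minus effective length was 258.64 bases there and 229.21 to 239.06 bases in the others, and the part of this in the member values was not tested. Without control library 1 the counts were the same, 3 members higher and 1 lower. The median coefficient of variation within a group was 3.79% in control and 3.75% with itaconate, beside 4.36% and 4.05% for the 4098 tested genes averaging 50 CPM or more.

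By role, library means of log2 CPM were set relative to the control mean, as a description with no test. Cyclins, CDK1 and phosphatases, Cdc25b among them, lay at -0.01 to 0.01 in control and at 0.06 to 0.12 with itaconate, without overlap. Cdc25b, at a log2 fold change of 0.41, weighs heavily in this mean of 6 genes, whose median was 0.09. Without Cdc25b the libraries overlap, as the mean of the other genes in itaconate library 2 then lies below that of control library 3. The separation of this role therefore rests on Cdc25b. The passenger complex genes lay at -0.02 to 0.04 and at 0.05 to 0.09, apart by a narrow margin (0.0376 in control library 3, 0.0472 in itaconate library 1). That holds for CPM, while by TPM the means of Aurkb, Incenp and Cdca8 were lower with itaconate and that of Birc5 higher. Centromere and kinetochore genes, Ndc80 included, lay at -0.04 to 0.03 and at -0.11 to -0.02, and the condensin and chromosome group at -0.05 to 0.07 and at -0.05 to 0.05, both with overlap.

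**Figure D4:**
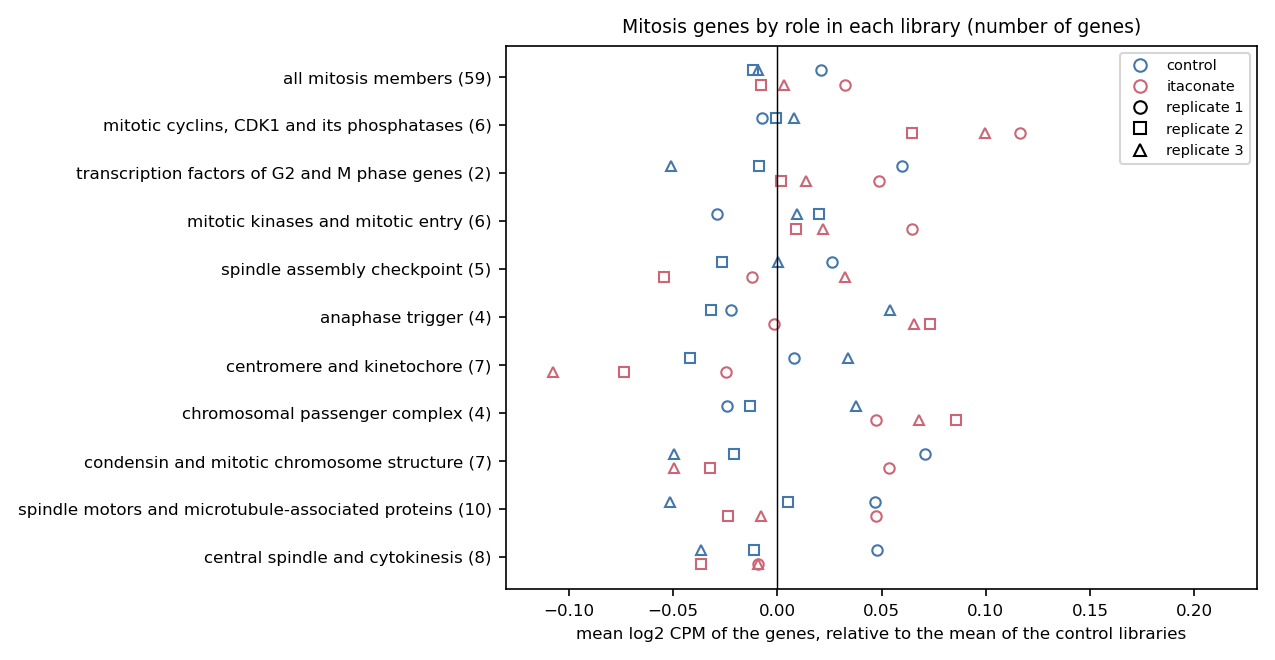
Mean log2 CPM of the genes of each role in every library, relative to the mean of the control libraries, with control in blue, itaconate in red and a symbol for each replicate number. The cyclin and CDK1 group shows itaconate libraries apart from control, but its mean includes the large change of Cdc25b, without which they overlap. The passenger complex shows them apart by a narrow margin. The condensin group does not.

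Mean transcript length, the tables' average over a gene's isoforms weighted by estimated abundance, was a readout that the list did not use. Of 58 members with more than 1 annotated transcript, 8 had lengths that did not overlap between the groups (13.8%), 7 longer and 1 shorter with itaconate, beside 9.84% of 10645 such genes. The split by direction was not counted over all genes. Among the 7 longer ones the shift was as small as 0.132%, for Kif11. Smc2 had the greatest shift of the 8, 3.61%, from 5013.3, 5218.5 and 5256.1 bases in control to 5334.5, 5333.1 and 5379.9 bases with itaconate. Bub1b, which encodes the checkpoint kinase BUBR1, was 3.08% longer and Aurkb 2.14% longer, while Nusap1 had a change of -0.698%. Estimates for Cenpf, a giant kinetochore protein, ranged from 7860.8 to 11022.5 bases over the libraries, and its TPM depend on them.

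Among other genes of mitosis, 145 tested of 146 listed, 6 rose (4.14%, beside 6.68% of all tested genes) and 5 fell (3.45%, beside 5.36%), with a median log2 fold change of -0.02. Nek6, a kinase of spindle formation, rose from 45.3 ± 3.16 to 69.5 ± 1.81 CPM (0.62 ± 0.06, adjusted p 4.5e-05). Fzr1, which keeps the anaphase-promoting complex active after mitosis, rose from 109 ± 3.47 to 129 ± 7.47 CPM (adjusted p 0.00944). Its call was lost without control library 2 (0.0581) or itaconate library 2 (0.0517) and with effective transcript lengths in the fit (0.0522). E2f2, a cell cycle transcription factor, rose from 83.5 ± 2.98 to 96.8 ± 3.42 CPM (adjusted p 0.018). It lost its call without control library 3 (0.0613), itaconate library 2 (0.0542) or itaconate library 3 (0.0948). Effective transcript lengths in the fit also removed it (0.0713). Fzr1 was the 1 gene called among 17 listed for the anaphase-promoting complex (5.88% higher and 0 lower).

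Ncapg2, a subunit of condensin II, fell from 139 ± 4.04 to 110.0 ± 6.39 CPM (-0.34 ± 0.05, adjusted p 0.00109). Hjurp, the chaperone that loads the Cenpa protein at centromeres, fell from 211 ± 7.06 to 178 ± 5.70 CPM (adjusted p 0.0041), and Cep152, a scaffold of centriole duplication, fell from 31.2 ± 0.687 to 24.04 ± 1.72 CPM (adjusted p 0.00587). Of 16 cohesin and condensin II genes 1, Ncapg2, passed (6.25% lower, close to the 5.36% of all tested genes), and the median was -0.06. Of these 16, 2 had a log2 fold change above 0 (12.5%, beside 51.4% of all tested genes), a difference that was not tested.

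DNA replication genes, which peak before mitosis, were set beside the 59. Of 57 replication genes 0 rose, beside 6.68% of all tested genes, and 7 fell (12.3%, beside 5.36%) by edgeR, with a median log2 fold change of -0.06. At an unadjusted p under 0.05 by edgeR, 3 were higher and 14 lower, beside 26.5% of all genes in either direction. The split of that 26.5% by direction was not counted. Orc5, of the origin recognition complex, fell from 37.6 ± 0.235 to 27.3 ± 2.07 CPM (adjusted p 0.00106). The helicase subunit Mcm3 fell from 601 ± 14.9 to 532 ± 9.35 CPM (adjusted p 0.0173). Its call was lost without itaconate library 2 (0.0711) or 3 (0.0689) and with effective transcript lengths in the fit (0.209). The difference between the replication genes and the 59 was not tested. Of 15 tested genes of G1 cyclins and inhibitors, 2 rose (13.3%, beside 6.68% of all tested genes) and 1 fell (6.67%, beside 5.36%). Cables1 (1.04 ± 0.08) and cyclin D3, Ccnd3 (0.29 ± 0.04), rose. Cyclin D2, Ccnd2, fell (-0.22 ± 0.05, adjusted p 0.009), a call lost without control library 2 (0.0541) and with effective transcript lengths in the fit (0.0531).

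**Figure D5:**
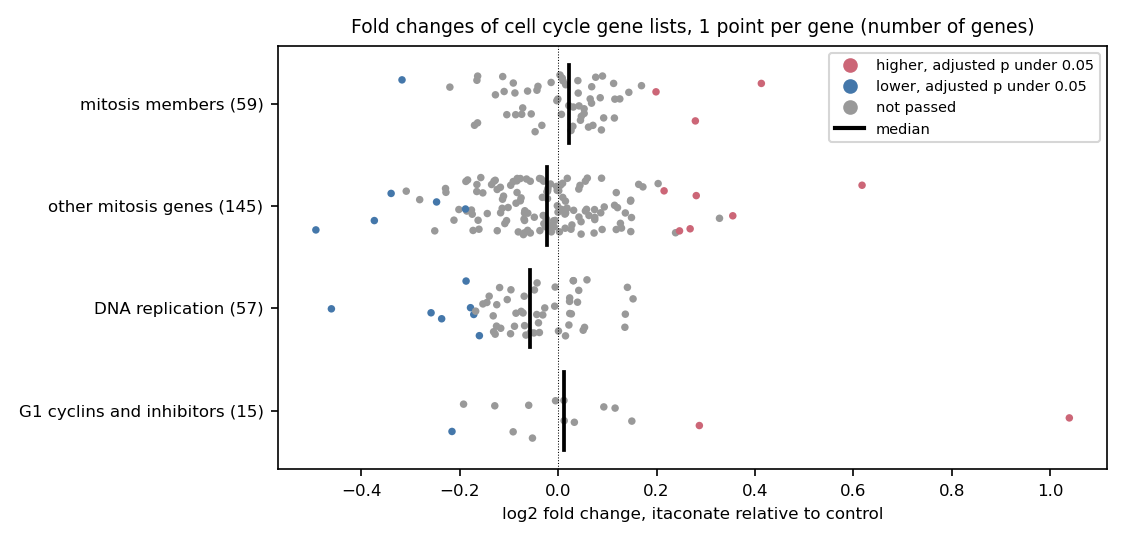
Fitted log2 fold changes of the 59 members, 145 other mitosis genes, 57 DNA replication genes and 15 G1 genes, 1 point per gene, with red for genes that rose, blue for genes that fell, grey for those that did not pass and a bar at each median. The replication genes have 7 blue points and no red ones, and the members have 3 red points and 1 blue.

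Total expected counts ran from 18280217 to 31643408 per library. The 6 markers of CD8 T cells summed to between 1396 and 1482 CPM in control and between 1626 and 1634 CPM with itaconate. Of these 6, Cd8a passed, from 497 ± 27.4 to 645 ± 14.4 CPM (adjusted p 0.000297), and Cd8b1, Cd3d, Cd3e, Cd3g and Trac did not. Summed markers of other cells reached at most 10.8 CPM for CD4 T cells (2 genes), 19.99 for B cells (4), 1.07 for NK cells (3), 2.36 for macrophages and monocytes (5) and 16.9 for dendritic cells (4). They reached 1.63 for gamma-delta T cells (1), 2.75 for neutrophils (3) and 3.995 for erythroid cells (3), with Siglech and Ly6g at 0 in every library. All of these ranges other than that of CD8 overlapped between the groups, and their part in the results was not tested.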

How the data were processed

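RNA-seq was measured in 3 control and 3 itaconate libraries. Per the file headers, which carry RSEM's column names, the authors deposited expected counts, TPM, FPKM (not used) and transcript lengths per gene. Bowtie 0.12.2 and builds mm8 and mm10 are named per the submitters' processing notes, and the sources used here give no further step. Expected counts were rounded, since 5.99% to 6.93% of genes per library were more than 0.001 from a whole number. Tests used edgeR 4.0.16 in R 4.3.3 (TMM factors of 0.9866 to 1.017, minimum count 10, minimum total 15, robust two-sided quasi-likelihood, Benjamini-Hochberg over 12350 genes, threshold 0.05), tested on simulated data. Means by role use log2(CPM + 0.1). Overlaps and chromosomes come from GENCODE M21 (GRCm38), which held 99.83% of the gene IDs. Reads of overlapping genes on opposite strands may not be separable.

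Alternatives were relative log expression factors, DESeq2 1.42.0, no filter or a minimum count of 50, limma 3.58.1 on log2(TPM + 1) and log2(TPM + 0.1), effective length offsets, a length trend removed, a replicate block, and leaving out each library. Members and lists were chosen with earlier results of these data known. Members given by library were those called, the smallest adjusted p of each role, the 3 highest TPM, the 2 largest changes each way, and Mki67, Top2a, Cdk1, Ccnb1, Plk1, Aurkb, Birc5 and Foxm1, and from each other list up to 3 called genes each way. Other genes named were chosen after their values were seen. A gene that the rule takes is not reported here.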

Additional observations from a re-analysis of the deposited data

How the results depend on the processing

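Without 1 library, between 726 and 1400 genes changed (1487 with all 6), 2 to 3 members rose, 1 to 2 fell and the members' median log2 fold change ran from 0.0049 to 0.0330. The lowest counts came without control library 2 (726), itaconate library 3 (835) and itaconate library 2 (896), and the additional member that fell, without itaconate library 1, was Cenpe. Limma called 340 genes on log2(TPM + 1) and 356 on log2(TPM + 0.1), with 0 members higher, 0 lower and medians of -0.0290 and -0.0293. In both, 2 members were higher and 6 lower at an unadjusted p under 0.05, without a share of all genes to set beside them. The adjusted p of Cdc25b, Ube2c and Ndc80 on log2(TPM + 1) was 0.0693, 0.0723 and 0.0563. Effective length offsets left 567 calls, and with no filter on low counts 4 members fell, Ndc80, Ncapg, Cenpe and Kif20b. The cause was not tested.

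With the replicate number as a block, 2419 genes changed, 4 members rose and 4 fell. The members gained were Foxm1 (adjusted p 0.0229), higher, and Ncapg (0.0158), Cenpe (0.0158) and Kif20b (0.0228), lower. Same-numbered libraries correlated at 0.405, 0.164 and 0.095, and control library 3 correlated best with itaconate library 2 (0.329), so the numbers were not taken to pair the libraries.

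The difference of Ccnb1 was below 0 with relative log expression factors (-0.0035), DESeq2 (-0.0035), a minimum count of 50 (-0.0027), limma (-0.1022 and -0.1028), length offsets (-0.0373), the length trend removed (-0.0205) and without control library 1 (-0.0157), control library 2 (-0.0073) or itaconate library 3 (-0.0065). Over the fits without 1 library Ccnb1 ran from -0.0157 to 0.0161 and Mki67 from -0.153 to 0.0454. Limma also gave values below 0 for Plk1 (-0.0226 and -0.0228) and Aurkb (-0.0609 and -0.0614). Mki67 was above 0 with the length trend removed (0.0531) and without control library 1 (0.0190) or itaconate library 3 (0.0454). These 4 genes passed in none of the settings. Of 465 values of single named genes under an alternative, 396 kept their direction and side of the threshold, 46 lost a call, 6 gained one and 17 changed sign.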

Other observations

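The 3 members that rose, Nusap1, Cdc25b and Ube2c, all lie on chromosome 2, which holds 10 of the 59. Of 958 tested genes on chromosome 2, 82 were called higher (8.56%), beside 6.68% of all tested genes. This was noticed after the values were seen and was not tested.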
